A study of Homo sapiens with 8 samples.

Results

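Binding of p63 at the loci of 8 genes for nutrient uptake and glycolysis was described from the lists of p63-bound regions of CAL27 and SCC13, both established human squamous cell carcinoma lines. The genes were SLC2A1, HK2 and PFKFB3 for glucose, SLC7A5, SLC3A2, SLC7A11 and SLC1A5 for amino acids, and SLC28A3 for nucleosides. Each gene was given a window of 0.21 to 0.29 Mb in hg19 coordinates, 2.02 Mb in all, and every listed region with its midpoint inside a window was counted. The windows held 27 of the 13829 CAL27 regions and 13 of the 5886 SCC13 regions. The 13 SCC13 regions were all among the 27 of CAL27, at identical start and end positions, so 27 distinct regions are described. Identical positions were not particular to these loci, since all 4448 regions shared over the whole lists had them.

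The 8 samples of the study formed 4 groups of 2, namely CAL27 p63 ChIP, CAL27 none, SCC13 p63 ChIP and SCC13 none. All cells were labelled as wild type and untreated; CAL27 was grown in serum and SCC13 in a serum-free keratinocyte medium with EGF and pituitary extract, so medium and line cannot be told apart. Chromatin immunoprecipitation and sequencing had been summarised by the authors as 1 list of regions per line for both p63 replicates, with no score, height or depth. No spread between replicates and no binding strength could therefore be given, and a locus without a listed region is not shown to be unbound.

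The transcription factor p63, encoded by TP63, maintains basal keratinocytes and is kept in most squamous carcinomas. It belongs to the p53 family and binds pairs of short half-sites with a CATG core, often at enhancers distant from the promoter. Dividing carcinoma cells take up much glucose, glutamine, essential amino acids and cystine. Of the proteins described here, SLC2A1, SLC1A5, SLC7A5 and SLC7A11 carry these across the plasma membrane. In squamous cancers SLC2A1 has been described as a gene activated by p63 together with SOX2.

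The middle of each window, that is the window less 0.1 Mb on each side, was set apart from its outer parts. Its width lay within 10 kb of the length of the RefSeq gene for 7 of the 8 genes, and for PFKFB3 it was 91.7 kb shorter. No gene annotation of hg19 was used, so the middle parts stand for the genes by width only, and exons, introns and start sites were not placed. In CAL27, 10 regions lay in the 0.42 Mb of middle parts and 17 in the 1.6 Mb of outer parts, or 23.8 and 10.6 regions per Mb. In SCC13, 5 and 8 regions lay there, or 11.9 and 5 per Mb. SLC2A1 held 3 of the middle regions in each line, and in SCC13 the contrast rested on it. Leaving out its window was an alternative added after the values were seen. The middle and outer parts then held 18.4 and 10.0 regions per Mb in CAL27 and 5.26 and 5.00 in SCC13. In CAL27 PFKFB3 also held 3 of the middle regions, and its window was not left out in turn.

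**Figure D1:**
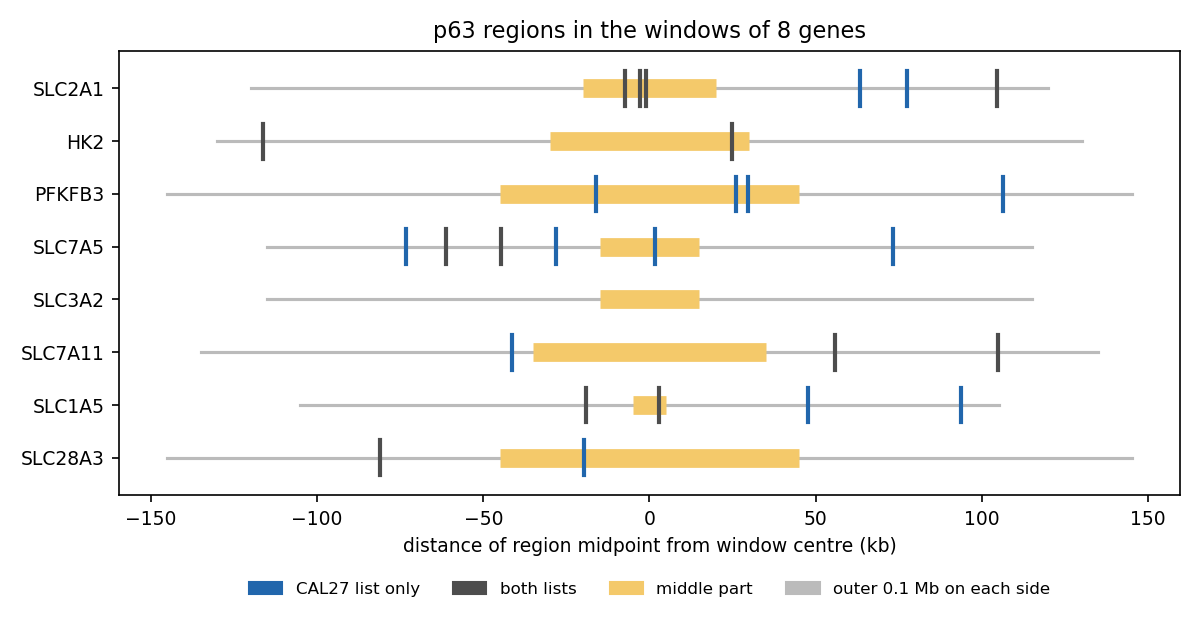
Midpoints of the 27 p63 regions in the 8 windows, as distance from the window centre in kb, with 1 row per gene; blue ticks are in the CAL27 list only, dark ticks in both lists, and the thick yellow bar is the middle part. SLC2A1 has 3 regions of both lists close together near the centre, PFKFB3 has CAL27 ticks only, and the SLC3A2 row is empty.

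Regions of p63 were found at 7 of the 8 loci in CAL27 and at 6 of the 8 in SCC13. Of all bins of 0.25 Mb, 52.5% held a CAL27 region and 33.8% an SCC13 region. The windows held 13.4 regions per Mb in CAL27, against 4.72 over the span of the whole list, a ratio of 2.83. In SCC13 they held 6.44 per Mb, against 2.01, a ratio of 3.20. The median window held 3.5 CAL27 regions and 2 SCC13 regions. In tiles of the widths of the windows, the mean was 0.990 to 1.37 CAL27 regions and 0.421 to 0.581 SCC13 regions. These tiles cover the genome without regard to genes, and windows of other genes were not analysed here. The higher counts are therefore not shown to be particular to these 8 genes. Stretches where no region could be called were left in the span and the tiles, which lowers the genome values and raises the ratios.

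**Figure D2:**
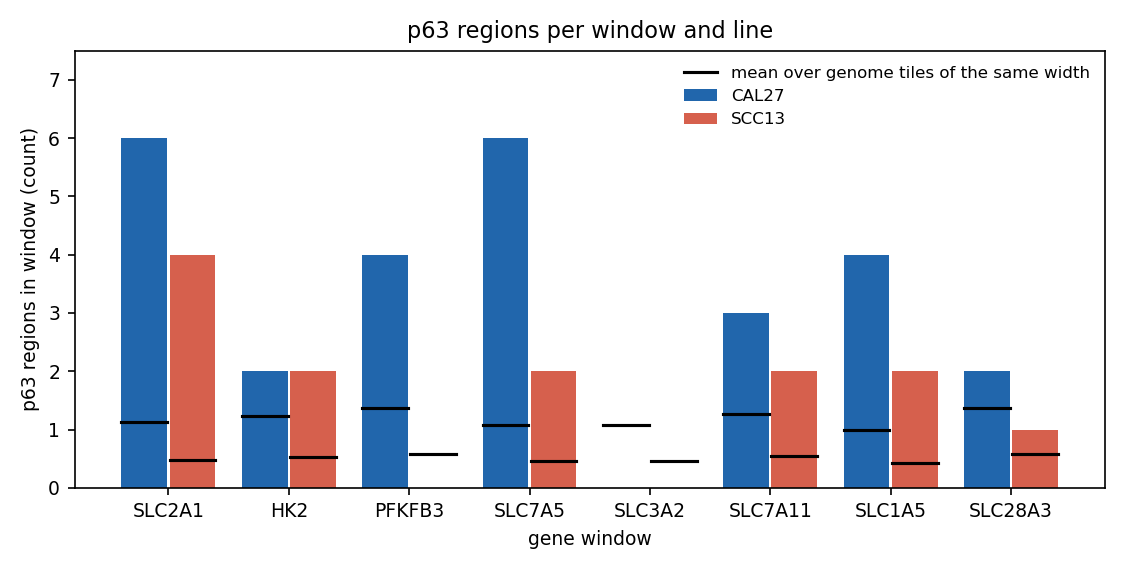
Number of p63 regions in each gene window, with CAL27 as blue bars and SCC13 as red bars; black lines give the mean over genome tiles of the width of that window. The bars reach 6 in CAL27 and 4 in SCC13, SLC3A2 has no bar, and PFKFB3 has a bar in CAL27 only.

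The glucose transporter locus SLC2A1 (GLUT1), in band 1p34.2, held 6 regions in CAL27 and 4 in SCC13. Of its tiles of equal width, 2.30% held at least 6 CAL27 regions and 0.992% held at least 4 SCC13 regions, which for SCC13 was the smallest share of the 6 loci with an SCC13 region. In its middle part lay a group of 3 regions, at chromosome 1 43401825 to 43403340, 43406324 to 43407825 and 43408553 to 43409321, all in both lists. Their midpoints were 4.49 and 1.86 kb apart, and they were 1516, 1502 and 769 bp wide. It was the only group of 3 or more regions joined within 12500 bp in the 8 windows, in either line. Over the CAL27 list 7.27% of regions belonged to such groups, and 3 of the 27 here did. Over the SCC13 list 1.39% did, and 3 of the 13 here. In the outer part toward higher coordinates, 2 regions of 980 and 1412 bp were in the CAL27 list only, and 1 of 644 bp, at 43514172 to 43514815, was in both. In RefSeq on GRCh38 the next protein-coding gene on that side is CFAP144 and on the other side ZNF691.

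The locus of HK2, hexokinase 2, which phosphorylates glucose and traps it in the cell, held 2 regions in both lines. The wider one, of 1490 bp at chromosome 2 75114022 to 75115511 in band 2p12, lay in the middle part, and its width exceeded that of most listed regions, at percentile 93.9 of the CAL27 list and 91.4 of the SCC13 list. The other one, of 641 bp at 74973469 to 74974109 in band 2p13.1, lay 141 kb away near the lower edge of the window. HK2 was thus the single locus with a region at which every listed region was in both lists. Among 1531 genome tiles of the same width with 2 CAL27 regions, 290 held at least 2 SCC13 regions, or 18.9%. Of all tiles of that width, 30.7% held at least 2 CAL27 regions and 11.9% at least 2 SCC13 regions.

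PFKFB3, the enzyme that makes the fructose bisphosphate that activates phosphofructokinase, had 4 regions in CAL27 and none in SCC13. They lay in band 10p15.1, with 3 in the middle part at chromosome 10 6218617 to 6219171, 6260831 to 6261485 and 6264306 to 6265011. The last 2 of these were 3.50 kb apart, and the other one, at 6340862 to 6341680, lay in the outer part. They were 555 to 819 bp wide, and 3 of them were narrower than the CAL27 median of 791 bp. The nearest SCC13 regions were 452 kb below and 154 kb above the window. Among 487 genome tiles of the same width with 4 CAL27 regions, 93 held no SCC13 region, or 19.1%, so an absence of this kind was not rare.

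The locus of SLC7A5 (LAT1), the light chain of a carrier of large neutral amino acids such as leucine, held 6 regions in CAL27 and 2 in SCC13. Its tiles of equal width held at least 6 CAL27 regions in 1.95% and at least 2 SCC13 regions in 9.96% of cases. In its middle part lay a single region of 3223 bp at chromosome 16 87885100 to 87888322, in band 16q24.2. It was the fifth widest of the CAL27 list and the second widest of the 9381 regions in the CAL27 list only, whose median was 723 bp. No SCC13 region overlapped it. The other 5 lay outside the middle part, 4 of them toward lower coordinates, the side on which RefSeq on GRCh38 has KLHDC4 next to SLC7A5. Of those 4, the regions of 1374 bp at 87823243 to 87824616 and of 1869 bp at 87839526 to 87841394 were in both lists. The regions of 727 and 634 bp beside them were in the CAL27 list only, as was 1 of 764 bp on the side of CA5A.

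SLC3A2 encodes the CD98 heavy chain, which pairs with SLC7A5 and with SLC7A11 to bring these carriers to the membrane. Its window in band 11q12.3 held 0 regions in CAL27 and 0 in SCC13. Of tiles of the same width, 49.3% held no CAL27 region and 68.2% no SCC13 region. The surroundings were not empty, with 12 CAL27 regions and 3 SCC13 regions within 0.5 Mb of its edges. The nearest CAL27 regions were 162 kb below and 86.2 kb above the window, at 62367167 to 62367910 and 62845970 to 62846352. In SCC13 the nearest below was the same region, and the nearest above was 994 kb away. The heavy chain locus thus had no listed region, while both of the light chain partners in this set had regions in both lines.

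Promoter sequences of the 2 subunits SLC7A5 and SLC3A2 are shown because they were the 2 genes with a match there to the looser motif below. Their windows held 6 and 0 CAL27 regions. RefSeq promoters on GRCh38.p14, from 250 bases before to 50 after a start, were available for 12 starts of 6 genes, and none was used for SLC7A11 and SLC28A3. A strict motif of CATG, any 6 bases and CATG again, which reads the same on both strands, matched 0 of the 12 and 0.373% of all 35116 promoters. The looser motif CATGNNNNNNCNNG, searched on both strands, which includes the strict one, matched 2 of the 12 and 9.70% of all. It asks for CATG at 1 end only, and neither of the 2 matches has the pair of CATG cores. Both are printed on the strand of the gene with the match in capitals; SLC3A2 is the one of its 3 starts that matched, chr11:62855859-62856158 on the plus strand, and SLC7A5 is chr16:87869458-87869757 on the minus strand.
SLC7A5: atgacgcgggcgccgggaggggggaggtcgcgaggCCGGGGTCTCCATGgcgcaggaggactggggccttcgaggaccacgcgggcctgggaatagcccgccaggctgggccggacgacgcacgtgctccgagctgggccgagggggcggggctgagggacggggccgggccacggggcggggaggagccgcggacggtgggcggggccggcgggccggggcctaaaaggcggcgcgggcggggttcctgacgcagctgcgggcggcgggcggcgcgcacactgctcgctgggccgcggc
SLC3A2: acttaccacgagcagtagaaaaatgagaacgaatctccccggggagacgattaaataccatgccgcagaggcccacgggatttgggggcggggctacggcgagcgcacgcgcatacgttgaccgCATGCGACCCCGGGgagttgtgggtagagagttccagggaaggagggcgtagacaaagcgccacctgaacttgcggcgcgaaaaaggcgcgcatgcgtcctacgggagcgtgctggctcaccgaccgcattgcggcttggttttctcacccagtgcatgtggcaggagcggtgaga
In SLC7A5 the match spans bases 36 to 49 of the printed sequence, read on the strand opposite to the gene, and in SLC3A2 bases 125 to 138, read on the gene's own strand. The SLC3A2 promoter holds CATG 4 times and the SLC7A5 promoter 1 time. These positions belong to another build than the p63 regions, so no region was placed on either promoter. A match is a run of letters, and the SLC3A2 match stood in a locus with no listed p63 region.

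SLC7A11 (xCT), the other light chain partner of SLC3A2 in this set, imports cystine in exchange for glutamate. Its window in band 4q28.3 held 3 regions in CAL27 and 2 in SCC13, with none in the middle part. The region of 463 bp at chromosome 4 139083399 to 139083861 was in the CAL27 list only and was the narrowest of all 27. Regions of 1032 bp at 139180194 to 139181225 and of 775 bp at 139229508 to 139230282, in both lists, lay toward higher coordinates. Few other regions lay nearby, with 1 within 0.5 Mb of the edges in CAL27 and the same 1 in SCC13.

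SLC1A5 (ASCT2), a carrier of glutamine and other neutral amino acids, had 4 regions in CAL27 and 2 in SCC13, in band 19q13.32. The regions in both lists were of similar width, 1068 bp at chromosome 19 47265356 to 47266423 and 1022 bp at 47287467 to 47288488, with the second in the middle part. The 2 in the CAL27 list only, of 483 and 651 bp, lay on the other side, where RefSeq on GRCh38 has AP2S1 as the next protein-coding gene. The window of SLC1A5 was the shortest, and 6.58% of tiles of its width held at least 4 CAL27 regions and 8.95% at least 2 SCC13 regions.

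SLC28A3 (CNT3), which drives nucleosides into the cell along the sodium gradient, held 2 regions in CAL27 and 1 in SCC13. The region of 1048 bp at chromosome 9 86853477 to 86854524, in band 9q21.32, was in both lists. The region of 630 bp at 86915126 to 86915755, in band 9q21.33 and in the middle part, was in the CAL27 list only. Tiles of the same width held at least 2 CAL27 regions in 34.0% and at least 1 SCC13 region in 37.5% of cases, the largest shares of any locus with a region.

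The windows were denser in p63 regions than the 0.5 Mb on each side of them at 6 of the 8 loci in each line. Over all 8 loci the windows held 13.4 regions per Mb in CAL27, against 8.38 in the flanking 8 Mb, and 6.44 in SCC13, against 2.5. The exceptions were SLC3A2 and SLC28A3 in CAL27 and SLC3A2 and PFKFB3 in SCC13. At SLC28A3 the window held 6.90 CAL27 regions per Mb, against 13 in the flanks, and 10 of those 13 flanking regions lay above the window, on the side of NTRK2. None of these 10 had a partner in SCC13, whose next region in that direction was 2519 kb from the window. At SLC7A11 the window exceeded its flanks, with 11.1 regions per Mb in the window and 1 in the flanks in CAL27, and 7.41 and 1 in SCC13. These are single counts per locus without replicates, and no test was made of them.

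**Figure D3:**
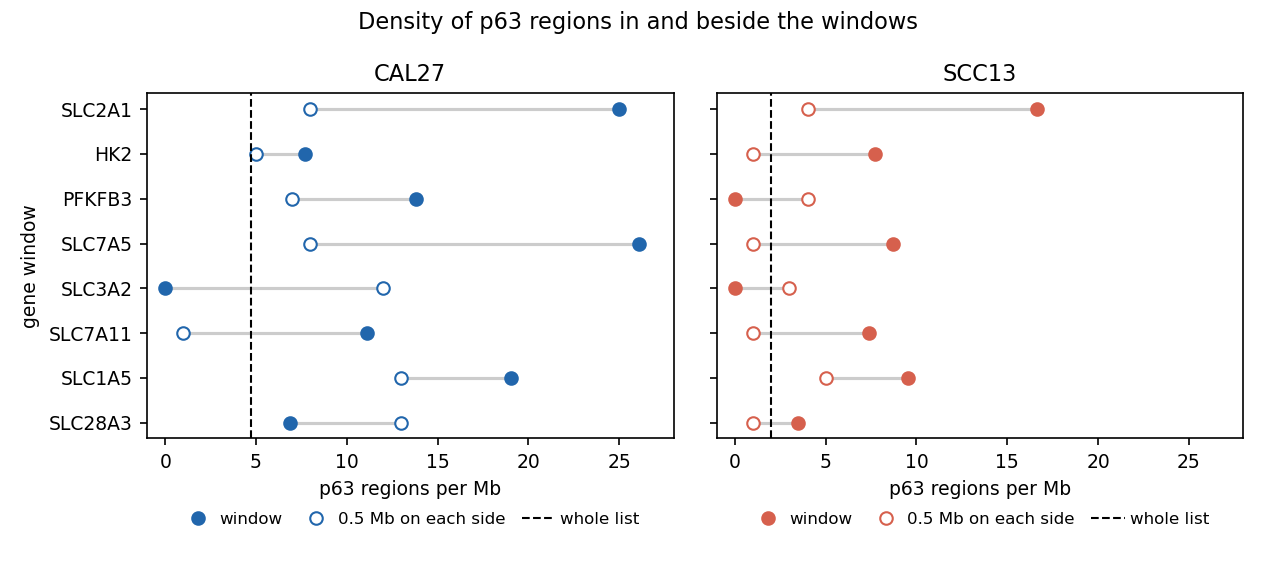
Density of p63 regions per Mb in each gene window (filled points) and in the 0.5 Mb on each side (open points), for CAL27 on the left and SCC13 on the right; dashed lines mark the whole lists at 4.72 and 2.01 per Mb. Filled points lie to the right of open points at 6 of the 8 loci in each line, with SLC3A2 at 0 in both.

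Of the 27 CAL27 regions, 13 were also in the SCC13 list, or 48.1% (95% exact Clopper-Pearson interval 28.7 to 68.1), against 32.2% over the whole CAL27 list. All 13 SCC13 regions were also in the CAL27 list, or 100% (75.3 to 100), against 75.6% over the whole SCC13 list. The remaining 14 were in the CAL27 list only, and no region of these loci was in the SCC13 list only. In the flanking 8 Mb, 28.4% of 67 CAL27 regions and 95% of 20 SCC13 regions were in both lists. The intervals cover counting error only and treat neighbouring regions as independent. As all shared regions had identical positions in both lists, the sharing is not shown to come from separate calls in each line.

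Regions in both lists were wider here than regions in the CAL27 list only, as they were over the whole lists. Their median was 1048 bp, against 680.5 bp for the 14 in the CAL27 list only; over the whole lists the medians were 934 and 723 bp. Of the 27 regions, 13 were wider than the CAL27 median of 791 bp, and of the 13 SCC13 regions 9 were wider than the SCC13 median of 862 bp. The 3223 bp region of SLC7A5 stood apart, since the next widest in the windows, also at SLC7A5, had 1869 bp. It was in the CAL27 list only, against the direction of the medians. The lists give no height, so a wide region is not shown to be a strongly bound one. A region in both lists had the same width in each, which is not shown to be measured separately per line.

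**Figure D4:**
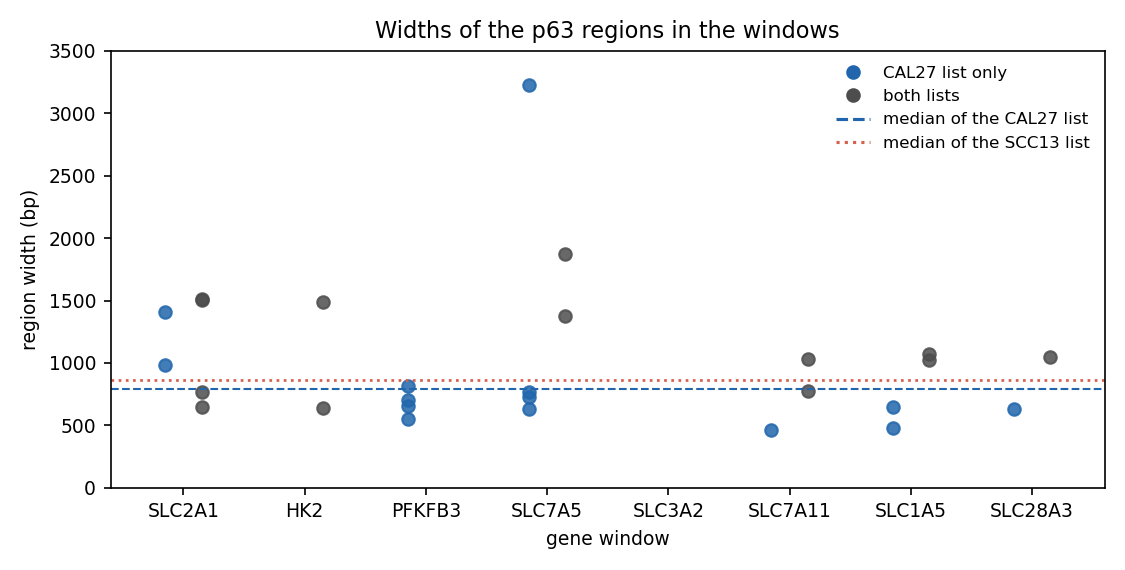
Width in bp of each of the 27 p63 regions by gene window; blue points are in the CAL27 list only and dark points in both lists, and lines mark the medians of the CAL27 list (791 bp, dashed) and the SCC13 list (862 bp, dotted). The SLC7A5 point at 3223 bp lies above all others, and all 4 PFKFB3 points are blue and lie at or under 819 bp.

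Whether a locus took a different share of the regions in CAL27 than in SCC13 was tested by Fisher's exact test, two-sided, over 11702 features, the 8 windows and 11694 bins of 0.25 Mb. No window passed after Benjamini-Hochberg adjustment, 0 of 8, and of all features 0% passed with a larger share in CAL27 and 0% with a larger share in SCC13. Unadjusted, the exact test gave p under 0.05 for 0 of the 8 windows and for 0.0427% of all features. The smallest unadjusted p of a window was 0.325, for PFKFB3 with 4 regions in CAL27 and 0 in SCC13 (exact test, adjusted p = 1). The counts set this outcome: even if all 10 listings at SLC2A1 had been in 1 line, the adjusted p could not have gone below 0.0655, and it would have been higher at every other window with a region. The test therefore says nothing about whether the loci are alike in both lines.

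As shares of each list, the windows together held 0.195% of the CAL27 regions and 0.221% of the SCC13 regions, a ratio of 0.884 (95% interval 0.456 to 1.71). The ratio of shares was 0.638 at SLC2A1 (0.180 to 2.26), 0.426 at HK2 (0.0600 to 3.02) and 1.28 at SLC7A5 (0.258 to 6.32). At SLC7A11 it was 0.638 (0.107 to 3.82), at SLC1A5 0.851 (0.156 to 4.65) and at SLC28A3 0.851 (0.0772 to 9.39). Every interval included an equal share, and those of the single loci were wide. They treat the lists as separate samples, though the same regions stand in both, so they do not measure the uncertainty of these ratios. The CAL27 list as a whole was 2.35 times as long as the SCC13 list. Every SCC13 region of the windows was also in the CAL27 list, so no ratio could fall below 0.426. The HK2 value lies on that limit and restates the list lengths. The lower ends of the single-locus intervals lie under it, because the intervals leave the sharing out of account.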

How the data were processed

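Regions bound by p63 were deposited by the authors as 1 list per line, with chromosome, start and end and no score. Bowtie2, SAMtools 1.8, MACS2 and the build hg19 are named in the submitters' processing notes, without roles. How peaks were called, how the 2 replicates were joined and what the none samples served for is not given in the sources used. Nor is it given why regions in both lists have identical positions. Depth is unknown.

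Windows came from a rule that names the 8 genes. The genes and the divisions used were chosen with earlier results of these data known. All 8 genes are named; neighbouring genes came from RefSeq on GRCh38.p14, by order along the chromosome and leaving out uncharacterised LOC entries. Motif matches in promoters were looked for after the regions had been seen. Positions are counted from 1, and bands of hg19 came from circlize 0.4.16.

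A region belonged to a window by its midpoint and was in both lists if it overlapped by at least 1 bp. Bins and tiles ran from the first to the last listed region of each chromosome, and gaps in the assembly were not taken out. Lines were compared by Fisher's exact test with Benjamini-Hochberg adjustment at 0.05 over all windows and bins, with shared regions counted in both lists, so the lists were not separate samples. Ratios have intervals from a normal approximation of their logarithm. Alternatives changed window edges, assignment, widths, sharing and bins. Tests ran in scipy 1.17.1 under Python 3.11.15, tables in pandas 2.3.3 with numpy 2.4.6, and plots in matplotlib 3.10.9, and the functions were tested on simulated data. Sequences of the p63 regions and windows of further pathway genes were not analysed here, since they need an hg19 genome or annotation.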

Additional observations from a re-analysis of the deposited data

How the results depend on the processing

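No paired analysis was possible because each line has 1 list for both replicates. No replicate could be left out either. The 27 CAL27 regions numbered 19 and 34 with windows narrowed and widened by 50 kb on each side, and the 13 SCC13 regions 10 and 17. They became 10 in the middle parts alone and 13 among regions at least as wide as the median of their list in CAL27, and 5 and 9 in SCC13, as fewer regions could be counted. SCC13 had a middle-part region at 3 windows in place of 6. Among the wider regions 69.2% of those of CAL27 were in both lists, in place of 48.1%. The SLC7A5 ratio of shares, 1.28, turned to 0.639 among the wider regions. With the window narrowed by 50 kb on each side it was 0.851, so its direction depends on these choices. Of the 27 ratios from alternatives other than those of bins, the other 25 kept their direction. These include the ratios by any overlap with the window, which equalled the main values because no region crossed a window edge. Others lay on the lower limit of 0.426 set by the list lengths, as at HK2, SLC2A1 and SLC1A5 in the middle parts. The number of ratios that kept their direction is therefore no measure of stability. No window passed the exact test under any of the 8 alternatives run for it, which counts this small do not allow to be read as stability. With shared regions left out no ratio could be given, as SCC13 had none in the windows. Without scores, no stricter peak threshold could be applied.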

Other observations

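Several regions lay close to a window's edge, so counts depend on where it was drawn. The nearest inside were at SLC1A5, 11.3 kb from the edge, HK2, 13.8 kb, and SLC2A1, 15.5 kb. The nearest outside in CAL27 lay 7.61 kb above the SLC7A5 window, at chromosome 16 88007281 to 88007942, 9.54 kb above the HK2 window, at chromosome 2 75229154 to 75229932, and 16.1 kb above the SLC1A5 window, at chromosome 19 47405612 to 47406616. The HK2 one was in both lists, and those at SLC7A5 and SLC1A5 were in the CAL27 list only.

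Loci with the same number of CAL27 regions differed in how many were in SCC13. Among 141 genome tiles of the width of the SLC2A1 window with 6 CAL27 regions, the median held 2 SCC13 regions and 12.1% held 4 or more, the number at SLC2A1. Among 122 tiles of the width of the SLC7A5 window with 6 CAL27 regions, 72.1% held at least 2, the number at SLC7A5.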
